A study of Mus musculus with 272 samples.

Results

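The genes described here are the ribosomal protein genes of the mouse in muscle stem cells (MuSCs). They were taken by name from the GENCODE M21 annotation of mm10: every protein-coding gene whose symbol starts with Rpl or Rps followed by a digit, leaving out the *Rps6k* kinases and names containing -ps. This gave 82 of 21938 protein-coding genes on the 21 assembled chromosomes. The rule takes 1 gene that encodes no ribosomal protein, *Rps19bp1*, whose product binds RPS19, and it leaves out 6 ribosomal protein genes with other names, among them *Rplp0* and *Rpsa*, which are given for comparison. The cells were GFP+ MuSCs sorted from the hindlimb muscles of Pax7Cas9 mice, made by crossing Pax7Cre with Cre-dependent Rosa26 Cas9-EGFP knockin mice, so that Cas9 and EGFP are present in cells with a history of Pax7 expression and all libraries share these alleles. The labels of these samples name the tissue as skeletal muscle and give no age, and nothing states whether cells of several mice were pooled. Of the 272 samples of the series, 8 libraries had peak lists, 2 replicates each of ATAC-seq (open chromatin) and of ChIP-seq for the promoter mark H3K4me3, for H3K27ac, found at active promoters and enhancers, and for H3K27me3, laid down by Polycomb complexes at repressed genes. There is 1 cell type and 1 condition, so that no groups were compared and no test was run. Every gene list is described by counts and medians beside those over all protein-coding genes.

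Ribosomal proteins assemble with ribosomal RNA into the small (RPS) and large (RPL) subunits of the cytosolic ribosome. Their genes are transcribed by RNA polymerase II in nearly every cell, are mostly short, and often carry small nucleolar RNAs (snoRNAs, which guide the modification of ribosomal RNA) in their introns. Their messenger RNAs typically begin with a C followed by an unbroken run of pyrimidines, the 5′ terminal oligopyrimidine (TOP) tract, through which mTOR signalling controls their translation. MuSCs in resting muscle are quiescent, and protein synthesis is held low in that state and increases on activation.

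The start-site sequences of some members show this feature. RefSeq promoter windows (GRCm38.p6, 250 bases before to 50 from the annotated start) were found for 63 of the 82 genes, 75 windows in all. The following 30 bases hold 10 bases before the annotated start and 20 from it on the transcribed strand, with the tract at the start in capitals. The examples are 3 marked genes with long tracts, the pair *Rps27* and *Rps27rt*, and *Rpl3l*, which has no tract exactly at the start and nearly no promoter peaks in these lists.
*Rps6* (chr4:86857348-86857377, minus strand): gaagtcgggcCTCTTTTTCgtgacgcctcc
*Rpl35* (chr2:39005112-39005141, minus strand): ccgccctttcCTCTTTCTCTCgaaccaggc
*Rpl28* (chr7:4792955-4792984, plus strand): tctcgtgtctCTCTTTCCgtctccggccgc
*Rps27* (chr3:90213629-90213658, minus strand): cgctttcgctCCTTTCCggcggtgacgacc
*Rps27rt* (chr9:114982720-114982749, minus strand): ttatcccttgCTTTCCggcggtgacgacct
*Rpl3l* (chr17:24727816-24727845, plus strand): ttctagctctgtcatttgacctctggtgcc

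A C followed by at least 4 pyrimidines lay exactly at the RefSeq start in 13 of 63 genes (20.6%), against 2.71% of 16522 protein-coding genes with a window. These genes were *Rpl14*, *Rpl15*, *Rpl28*, *Rpl35*, *Rpl35a*, *Rpl38*, *Rps6*, *Rps10*, *Rps15a*, *Rps18*, *Rps21*, *Rps27* and *Rps27rt*. With the C allowed anywhere within 10 bases of the annotated start, 39 of 63 genes held such a run (61.9%), against 35.2% of protein-coding genes. Annotated starts can be a few bases away from the base at which transcription begins, and a run that is not found says only that these letters are not in this window.

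A second set of sequences shows 60 bases before and 20 bases from the start at the gene with the strongest ATAC-seq peak (*Rpl27*), a gene with 3 matches in its window (*Rpl37*), the gene with the lowest ATAC-seq folds of those marked in both replicates and the strongest H3K27ac peak (*Rpl19*), and *Rpl39l*, which has no promoter peak of any kind here. Capitals mark the ETS core CCGGAA on either strand.
*Rpl27* (chr11:101442185-101442264, plus strand): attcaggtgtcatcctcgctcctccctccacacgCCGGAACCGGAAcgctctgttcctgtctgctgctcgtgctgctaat
*Rpl37* (chr15:5116553-5116632, plus strand): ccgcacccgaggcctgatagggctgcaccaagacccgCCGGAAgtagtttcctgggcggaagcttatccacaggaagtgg
*Rpl19* (chr11:98026650-98026729, plus strand): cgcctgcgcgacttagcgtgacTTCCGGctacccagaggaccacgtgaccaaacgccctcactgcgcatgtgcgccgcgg
*Rpl39l* (chr16:10170168-10170247, plus strand): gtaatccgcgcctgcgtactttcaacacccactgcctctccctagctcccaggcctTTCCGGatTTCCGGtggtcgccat

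The ETS core was in 35 of 75 windows (46.7%), against 19.2% of 20150 windows of protein-coding genes and 14.9% of all 32851 windows. Each motif was searched on both strands of the 300 bases. The core AAGATGG, named for YY1, was in 12 windows (16%, against 6.30% of windows of protein-coding genes), and the GC box GGGCGG in 44 (58.7%, against 47.8%). The E-box CACGTG was in 8 windows (10.7%, against 8.03%) and the NRF1 core GCGCATGC in 3 (4.00%, against 3.65%). TATAAA was found in 6 windows (8.00%, against 12.1%). TATAAA or TATATAA between 40 and 20 bases before the start, on the transcribed strand, was present at *Rpl22l1* and *Rps18* (2.67% of windows, against 2.80%). The windows held a median of 57.7% G and C, from 40.7% at *Rpl4* to 75.3% at *Rps19*, against 57.0% over protein-coding genes. The ETS core and the YY1 core thus had higher shares than over all protein-coding genes, while G and C content was close to theirs. *Rpl39l* shows that a match does not go with marks in every gene: it held 4 ETS cores and had no promoter peak.

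Nearly all ribosomal protein genes carried the 3 active features at their promoters, taken as 3 kb either side of any annotated start site. An ATAC-seq promoter peak was listed for 77 and 76 of 82 genes in replicates 1 and 2, where 72.4% and 68.6% of all protein-coding genes had one. H3K4me3 marked 77 genes in each replicate, against 62.9% and 60.9% of all genes, and H3K27ac marked 76 and 77, against 50.1% and 47%. H3K27me3 was listed at 3 and 2 genes, against 5.66% and 7.64%. In both replicates, ATAC-seq marked 76 of 82 genes (92.7%, background 67.8%), H3K4me3 77 (93.9%, background 60.8%), H3K27ac 76 (92.7%, background 46.6%) and H3K27me3 1 (1.22%, background 4.81%). These 3 active features were present together, in both replicates, at 76 genes (92.7%, background 46.2%). No promoter peak in any of the 8 lists was found for 3 genes (3.66%, background 25.9%).

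**Figure D1:**
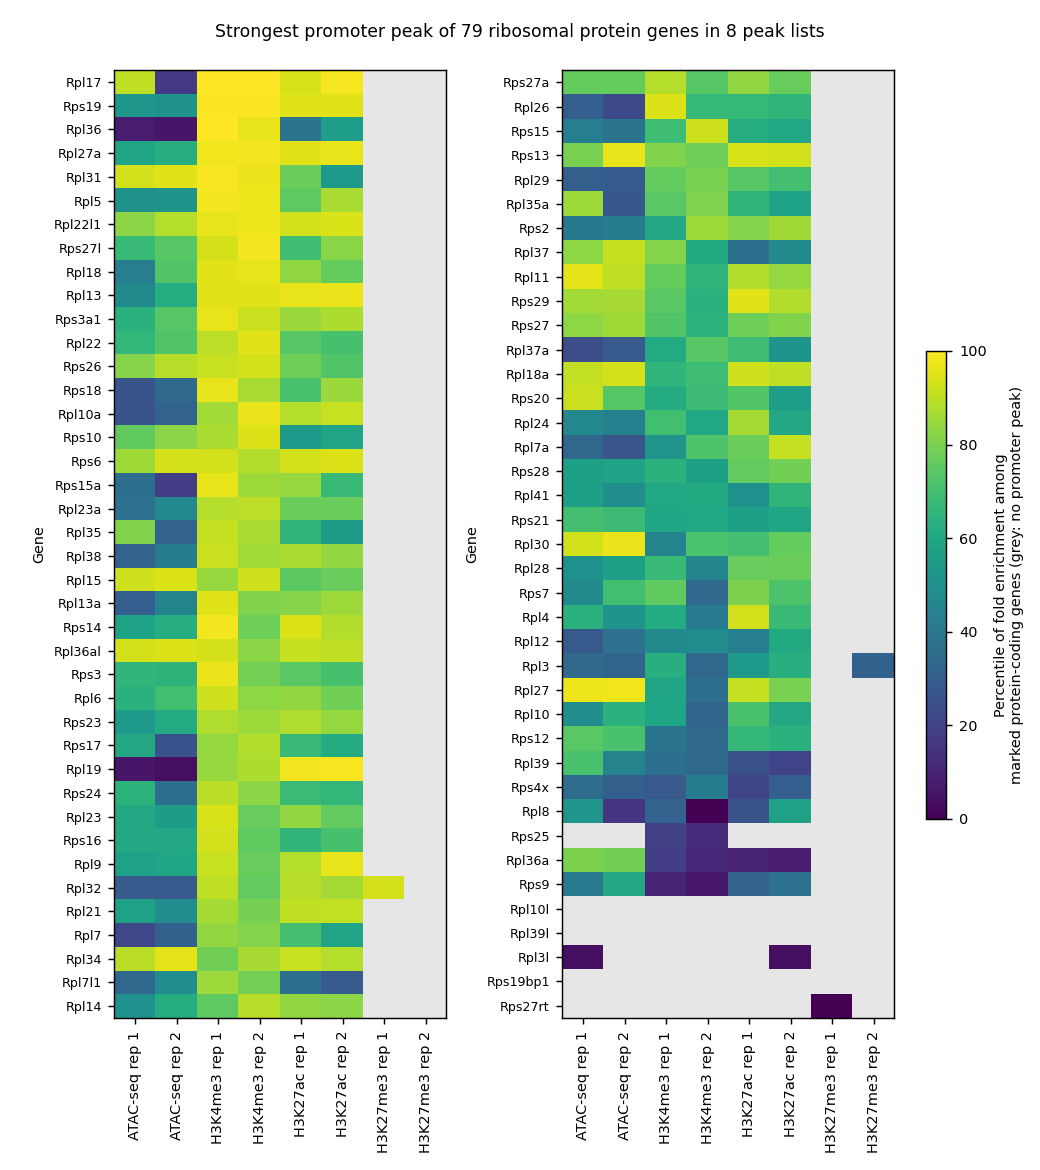
Strongest promoter peak of each of 79 of the 82 ribosomal protein genes (rows, ordered by H3K4me3) in each of the 8 peak lists (columns). The colour is the percentile of its fold enrichment among all protein-coding genes with a promoter peak in that list, and grey means no promoter peak. The 73 genes shown with all 3 active features fill the ATAC-seq, H3K4me3 and H3K27ac columns, while the H3K27me3 columns are filled at 2 genes and 1 gene.

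The share of marked genes was equally high in the related lists. All 3 active features in both replicates were found at 6 of the 6 ribosomal protein genes outside the naming rule, 27 of 29 translation factor genes (93.1%), 36 of 40 proteasome subunit genes (90.0%) and 75 of 78 mitochondrial ribosomal protein genes (96.2%). The share of marked promoters therefore did not set the cytosolic ribosomal protein genes apart from these lists. As a check of the cells, the 13 MuSC markers had ATAC-seq and H3K4me3 promoter peaks in both replicates at 13 genes and H3K27ac at 12, all but *Calcr*. Markers of other cells carried them too. ATAC-seq peaks in both replicates were at 6 of 10 fibro-adipogenic, 8 of 10 endothelial, 7 of 9 blood and 9 of 10 myofibre markers, H3K4me3 at 5, 5, 4 and 5 of them, and H3K27ac at 3, 1, 1 and 3, and the part of such cells in the results was not tested.

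The 6 genes without all 3 features were *Rpl3l*, *Rpl10l*, *Rpl39l*, *Rps19bp1*, *Rps25* and *Rps27rt*. Of these, *Rpl3l*, *Rpl10l*, *Rpl39l* and *Rps27rt* are paralogs or copies of a ribosomal protein gene that itself was fully marked. *Rps25* and *Rps19bp1* differ from them in their surroundings. The start of *Rps25*, a small subunit protein, lies in a stretch of 103 kb on chr9 (chr9:44305819-44408406) with no peak in any of the 8 lists, although this stretch also holds the start sites of 8 other protein-coding genes. The H3K4me3 peaks at *Rps25* began 1268 bp from its start, at the edge of that stretch, with a fold enrichment over the local background of 11.7 and 7.21 and widths of 748 and 452 bp in replicates 1 and 2. *Rps19bp1* lies in a stretch of 51.7 kb on chr15 without peaks (chr15:80226088-80277765) that holds the starts of 3 other protein-coding genes. The chromatin of these 2 stretches was not analysed here, and the missing peaks at both genes are not read as a lack of marks.

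Paralogs that arose from ribosomal protein genes fell on both sides. RPL10L replaces RPL10 in male germ cells, and *Rpl10l*, a gene of 1 exon, lay in a stretch of 239 kb without peaks that holds no other protein-coding start site. Its parent *Rpl10*, on the X chromosome, had H3K4me3 folds of 26.9 and 13.1, H3K27ac folds of 20.1 and 14 and ATAC-seq folds of 13.2 and 14.1. *Rpl39l*, a testis-expressed paralog of *Rpl39*, had no peak within 4 kb of its start, the nearest lying 4082 bp downstream. *Rpl39*, also X-linked, had H3K4me3 folds of 19 and 13.6. *Rpl3l* is known as a striated muscle paralog of *Rpl3*. It had 1 ATAC-seq peak of 73 bp with a fold of 5.09 in replicate 1, none in replicate 2, no H3K4me3 peak, and an H3K27ac peak of 633 bp with a fold of 4.41 in replicate 2 only, which lies over its 3′ end (chr17:24735669-24736301) and is counted because a shorter transcript starts within 3 kb of it. *Rpl3* had H3K4me3 folds of 28 and 13.4.

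*Rps27rt* is a copy of *Rps27* with 1 exon. Its window shares a run of 38 letters with that of *Rps27*, which begins at base 2 of *Rps27* and at base 1 of *Rps27rt* and so lies downstream of both starts, as the printed sequences show from CTTTCC on. Upstream of the start the printed letters differ. *Rps27* had ATAC-seq folds of 19.3 and 18.5, H3K4me3 folds of 31.4 and 21.1 and H3K27ac folds of 22.8 and 19.8, and *Rps27rt* had none of these peaks. In the pairs *Rpl10* and *Rpl10l*, and *Rpl39* and *Rpl39l*, the longest shared run was 8 letters.

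The other paralogs were as fully marked as their partners. *Rps27l*, which belongs to the p53 response, had H3K4me3 folds of 41.5 and 36.5, above the 31.4 and 21.1 of *Rps27*. *Rpl22l1* had H3K4me3 folds of 44.0 and 34.9, beside 39 and 32.9 at *Rpl22*, and both had H3K4me3 peaks among the narrowest of the members (1524 and 1138 bp at *Rpl22l1*, 1352 and 1239 bp at *Rpl22*). *Rpl36al*, a gene with a transcript of 1 exon on chr12, had H3K4me3 folds of 41.5 and 26.2 where its X-linked partner *Rpl36a* had 11.2 and 6.88. *Rpl7l1* had H3K4me3 folds of 36.6 and 25.1, close to 35.9 and 25.9 at *Rpl7*, and H3K27ac folds of 11.0 and 8.38 against 19.9 and 13.6. The peaks of *Rpl7l1* were also narrower, 1800 and 1428 bp for H3K4me3 against 3776 and 3445 bp at *Rpl7*.

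H3K4me3 was not only present but strong. The strongest H3K4me3 promoter peak of the 77 marked ribosomal protein genes had a median fold enrichment of 36.6 in replicate 1 and 25.4 in replicate 2, against 23.9 and 17.6 over all marked protein-coding genes. In replicate 1, 50 of the 77 (64.9%) were in the top 25% of all marked genes, and 48 (62.3%) in replicate 2. The median gene sat at percentile 85.4 and 80.0. Over 77 genes the folds of the 2 replicates had a Spearman rho of 0.76, given as a description, since the libraries share the cell type and each gene brings its own local background. The same value over all 13328 genes marked in both was 0.94.

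The strongest H3K4me3 peaks by the lower replicate belonged to *Rpl17*, *Rps19* and *Rpl27a*. *Rpl17*, a large subunit protein on chr18, had folds of 56.7 and 42.2, which is percentile 99.9 and 99.8 of marked genes. *Rps19*, in which mutations cause Diamond-Blackfan anaemia in humans, had 51.3 and 39.5, with a peak of 2752 and 2553 bp over a gene of 5436 bp. *Rpl27a* had 46.9 and 36.7. At the other end were *Rpl8* with 17.2 and 3.07, *Rps9* with 6.65 and 5.09, and *Rpl36a* with 11.2 and 6.88. The folds of *Rpl8* differed more than 5-fold between replicates, and its peak was 1758 and 1433 bp wide. The −log10 of the q-value of that peak was 264 in replicate 1 and 39.9 in replicate 2.

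*Rps9* had low H3K4me3 folds at a peak that was broad among the members in replicate 1 only. It encodes a protein of the small subunit that takes part in decoding, and its peak reached 3450 bp (chr7:3703619-3707068) in replicate 1 and 2011 bp in replicate 2, so that it covered 100% and 69.2% of the gene. Its ATAC-seq folds of 12 and 13.7 were close to the medians of all marked genes, 13.3 and 12.2, and its H3K27ac folds of 9.96 and 9.82 were below 13.9 and 12. The low value at this gene was seen in both H3K4me3 libraries.

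**Figure D2:**
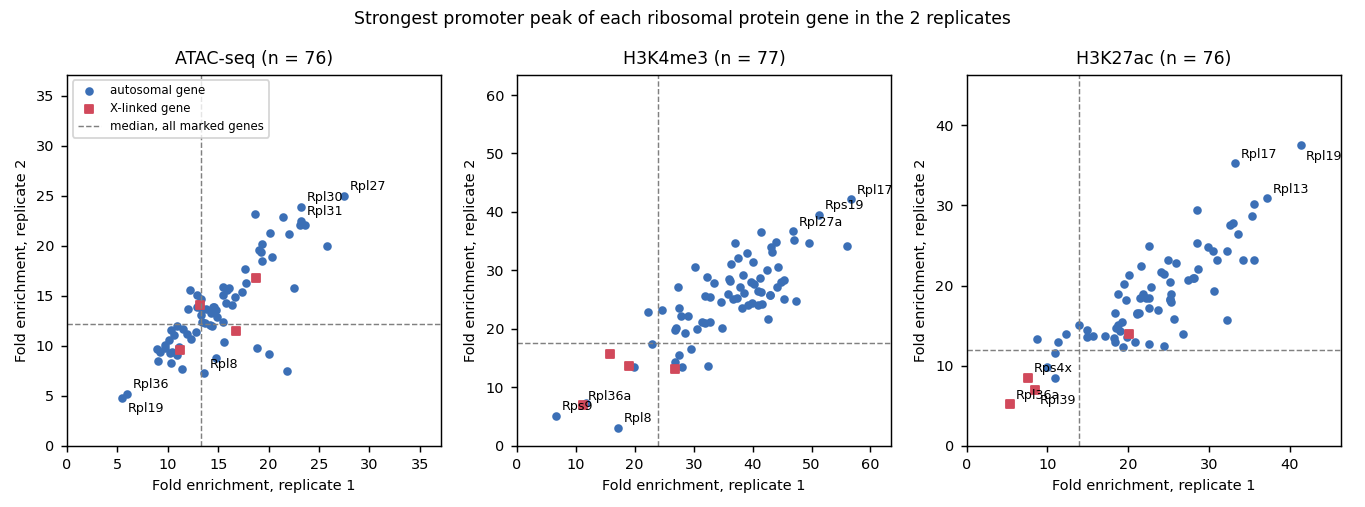
Fold enrichment of the strongest promoter peak of each ribosomal protein gene marked in both replicates, replicate 1 against replicate 2, for ATAC-seq, H3K4me3 and H3K27ac. Squares are X-linked genes and dashed lines are the medians over all marked protein-coding genes, and most points lie above the lines for H3K4me3 and H3K27ac, while they lie on both sides of them for ATAC-seq.

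Open chromatin was close to that of other genes. The median ATAC-seq fold was 14.4 over 77 genes in replicate 1 and 13.6 over 76 genes in replicate 2, against 13.3 and 12.2 over all marked genes. In the 2 replicates, 28.6% and 23.7% of the marked members were in the top 25% of all marked genes. The highest folds were at *Rpl27* (27.5 and 25), *Rpl30* (23.2 and 23.9) and *Rpl31* (23.2 and 22.5). The lowest among genes marked in both replicates were at *Rpl19* (5.48 and 4.78), *Rpl36* (5.95 and 5.18) and *Rpl8* (13.6 and 7.25).

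*Rpl19* and *Rpl36* stood at opposite ends for different features. *Rpl19*, a large subunit protein often used as a reference gene, had the lowest ATAC-seq folds of the members marked in both replicates, with peaks of 117 and 376 bp, and the strongest H3K27ac peak of the members, with folds of 41.4 and 37.5 (percentile 98.1 and 99.2) and widths of 1978 and 1673 bp. *Rpl36*, a gene of 828 bp, was covered in full by H3K4me3 peaks in both replicates, with folds of 56.1 and 34.2 (percentile 99.9 and 96.6), and had ATAC-seq at percentile 7.58 and 5.91. Among the 76 genes with both features, ATAC-seq and H3K4me3 folds had a Spearman rho of -0.05 in replicate 1 and 0.00 in replicate 2, where the values over all genes with both were 0.28 and 0.26. H3K4me3 and H3K27ac folds had 0.41 and 0.42 among the members, and 0.61 and 0.57 over all genes with both. These values are descriptions over genes that share libraries.

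H3K27ac was again above the level of other genes. The median fold was 22.6 and 18.2 at ribosomal protein genes, against 13.9 and 12 over all marked genes, and 57.9% and 53.2% of the marked members were in the top 25%. After *Rpl19*, the highest folds were at *Rpl17* (33.3 and 35.3) and *Rpl13* (37.2 and 30.9). The lowest among genes marked in both replicates were all on the X chromosome: *Rpl36a* (5.43 and 5.15), *Rpl39* (8.43 and 6.99) and *Rps4x* (7.66 and 8.46).

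The X-linked members as a group had low folds of both histone marks, as did X-linked genes in general. These are *Rpl10*, *Rpl36a*, *Rpl39* and *Rps4x*. Their H3K4me3 folds in replicate 1 ran from 11.2 to 26.9 with a median of 17.4, against a median of 37.3 over 73 autosomal members. In replicate 2 they ran from 6.88 to 15.6 with a median of 13.4, against 25.8. Over all protein-coding genes with an H3K4me3 peak the medians were 13.4 on X and 24.5 on autosomes in replicate 1, and 9.82 and 17.9 in replicate 2. For H3K27ac the medians of the X-linked members were 8.05 and 7.72, against 22.7 and 18.4 for autosomal members, and 8.43 and 7.72 over all marked X-linked genes. For ATAC-seq no such gap was seen: the X-linked members had medians of 15 and 12.8, and autosomal members 14.4 and 13.6. The ranges of X-linked and autosomal members overlapped for every feature.

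**Figure D3:**
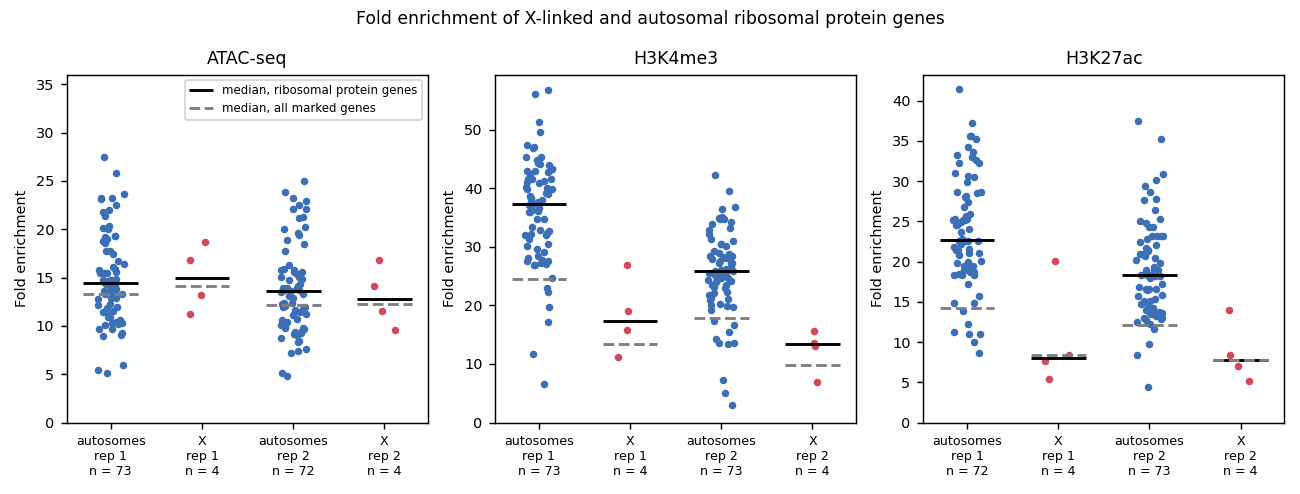
Fold enrichment of X-linked (4 genes) and autosomal ribosomal protein genes with a promoter peak, by feature and replicate; each point is a gene, black lines are medians of the members and dashed grey lines are medians of all marked protein-coding genes of the same chromosomes. The X-linked genes lie low for H3K4me3 and H3K27ac in both replicates, with medians of 17.4 and 13.4 for H3K4me3, and amid the autosomal genes for ATAC-seq.

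The H3K4me3 peaks were also wide. The median width of the strongest promoter peak was 2168 bp in replicate 1 and 1944 bp in replicate 2, against 1615 and 1338 bp over all marked genes, and 49.4% and 59.7% of the marked members were in the top 25%. For H3K27ac the medians were 1568 and 1366 bp, against 1160 and 987.0 bp. ATAC-seq peaks had medians of 481.0 and 581.5 bp, against 424.0 and 521.0 bp. The widths of the H3K4me3 peaks had a Spearman rho of 0.78 between replicates over 77 genes.

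The widest H3K4me3 peaks were at *Rpl7* (3776 and 3445 bp), *Rpl3* (3321 and 3168 bp) and *Rpl12* (3118 and 2846 bp). *Rpl7* and *Rpl12* share their peak with a neighbour, as it also covers a start of *Rdh10* and of *Lrsam1*. The strongest peak of *Rpl3* (chr15:80080940-80084260) covers position 80083406, the start of its protein-coding transcripts with most exons. The annotated gene begins farther upstream, at position 80091868 on the minus strand. The narrowest were at *Rps25* (748 and 452 bp), *Rps23* (1576 and 1109 bp) and *Rpl22l1* (1524 and 1138 bp). *Rps23*, which contributes to decoding accuracy, still had H3K4me3 folds of 37.9 and 27.2.

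The extra width lay downstream. At each gene the peak over the principal start (the outermost start of the protein-coding transcripts with most exons) was measured upstream and downstream of it. In replicate 1 such a peak was found at 72 genes, and its median reach was 572 bp upstream and 1634 bp downstream, against 562 and 1022 bp over 11741 marked protein-coding genes. In replicate 2, over 65 genes, the reach was 441 bp upstream and 1409 bp downstream, against 446 and 868 bp. The peak reached farther downstream than upstream at 69 of 72 (95.8%) and 63 of 65 genes (96.9%), against 80.6% of all genes in each replicate. H3K27ac peaks over the start showed the same shape, with 469 bp upstream and 1099 bp downstream in replicate 1 (465 and 773 bp over all genes) and 346 and 952 bp in replicate 2 (392 and 706 bp). ATAC-seq peaks reached 182 bp upstream and 209 bp downstream in replicate 1, against 210 and 262 bp, and 218 and 316 bp in replicate 2, against 241 and 302 bp.

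**Figure D4:**
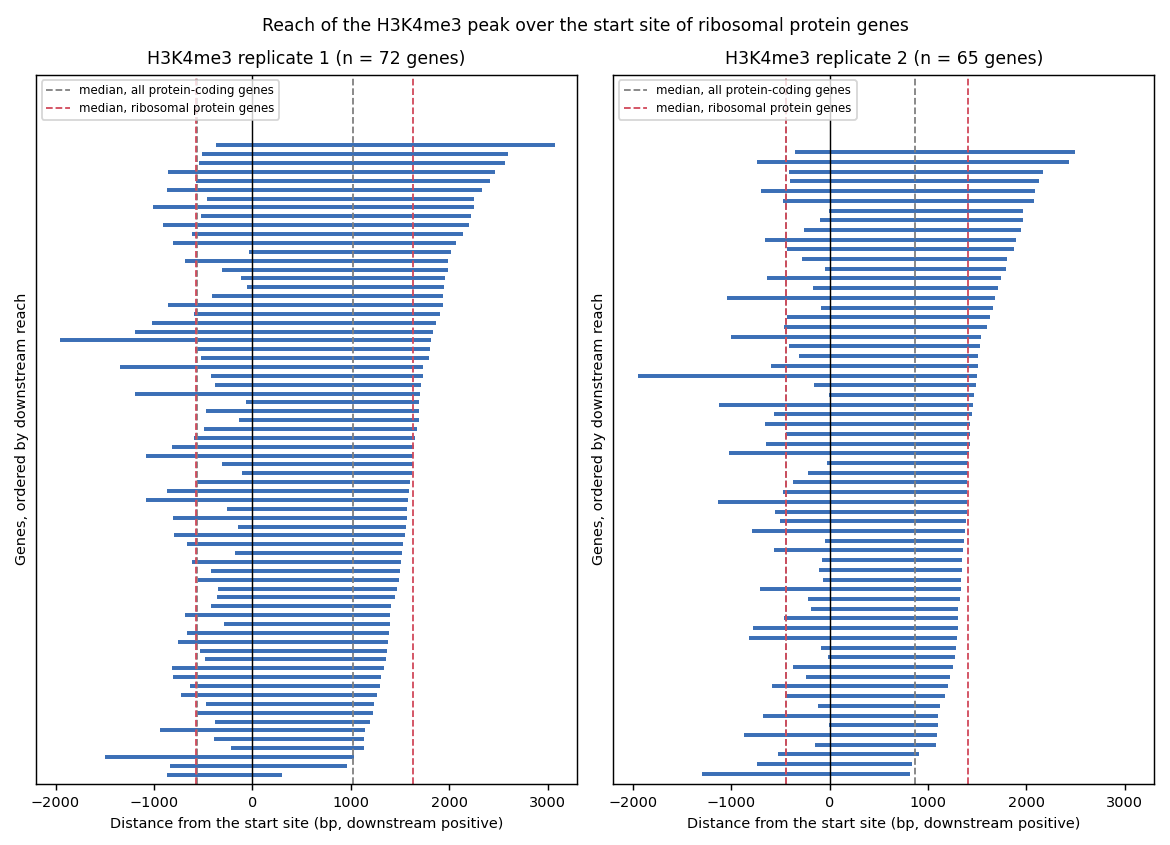
Reach of the H3K4me3 peak over the principal start of each ribosomal protein gene in replicates 1 and 2; each bar is a gene, the x axis is the distance from the start in bp with downstream positive, and genes are ordered by downstream reach. The red dashed lines (medians of the members) and the grey ones (medians of all marked protein-coding genes) lie within 10 bp of each other upstream, and the red line lies farther downstream, at 1634 against 1022 bp in replicate 1.

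The genes are short, and these peaks covered much of them. The median length was 3266 bp, against 17425 bp over all protein-coding genes, and 64 of the 82 (78.0%) were under 5 kb, against 18.9% of all protein-coding genes. H3K4me3 peaks covered a median of 55.5% and 49.3% of each marked ribosomal protein gene in replicates 1 and 2, against 4.47% and 3.70% over all marked genes. At least 50% of the gene was covered at 46 and 37 of the 77 marked genes (59.7% and 48.1%), against 4.34% and 3.23% of all marked genes. *Rpl36* and *Rps27* were covered wholly in both replicates.

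Short genes in general had narrower peaks than these. Among all protein-coding genes under 5 kb with an H3K4me3 promoter peak, the median width was 1578 bp in replicate 1 and 1310 bp in replicate 2, against 2222 and 1931 bp at ribosomal protein genes under 5 kb. The reach downstream of the start in these short genes was 998 and 844 bp, against 1618 and 1408 bp. The covered share was 33.2% and 29%, against 61.3% and 55.4%.

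The summit of the ATAC-seq peak lay close to the start. Its median distance to the nearest annotated start was 24 bp in replicate 1 and 36.5 bp in replicate 2, against 49.0 and 54.0 bp over all genes with an ATAC-seq promoter peak. It was within 100 bp at 65 of 77 (84.4%) and 64 of 76 genes (84.2%), against 69.4% and 67.9% over all genes. The distance depends on which start sites are annotated: from the RefSeq starts, the mean of the 2 replicate medians was 47.2 bp, against 30.2 bp from the GENCODE starts. More annotated starts can only shorten it, and numbers of starts were not compared between members and all genes. No RefSeq distance over all genes is given, so the comparison with other genes holds for GENCODE starts only.

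Compared with other gene lists for H3K4me3, the ribosomal protein genes were closest to translation factor genes and to the ribosomal protein genes with other names. The 27 marked translation factor genes had median H3K4me3 folds of 37.7 and 25.7 and widths of 2531 and 2037 bp. The 6 ribosomal protein genes with other names had 36 and 27.1, with 2270 and 1818 bp. The 36 marked proteasome subunit genes had 30 and 21.4, with 1626 and 1400 bp, and the 77 marked mitochondrial ribosomal protein genes had 29.3 and 20.4, with 1458 and 1263 bp. For H3K27ac, mitochondrial ribosomal protein genes had median folds of 14.2 and 12, close to those of all marked genes, where cytosolic ones had 22.6 and 18.2. Translation factor genes had 27.6 and 22.1, and the ribosomal protein genes with other names had 27 and 22.9. Proteasome subunit genes had 24.1 and 17.5. High H3K27ac medians were thus not particular to the members. In ATAC-seq the order was different, with medians of 15.4 and 14.8 at mitochondrial and 16.2 and 15.7 at proteasome genes, against 14.4 and 13.6 at cytosolic ribosomal protein genes. The quartiles of the folds of ribosomal protein genes overlapped those of each of these lists. Those of their H3K4me3 widths, 1927 to 2715 bp in replicate 1 and 1573 to 2203 bp in replicate 2, did not overlap the quartiles of the proteasome subunit genes (1529 to 1909 and 1090 to 1527 bp) or of the mitochondrial ribosomal protein genes (1246 to 1846 and 1021 to 1529 bp). These orders are descriptions without a test.

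**Figure D5:**
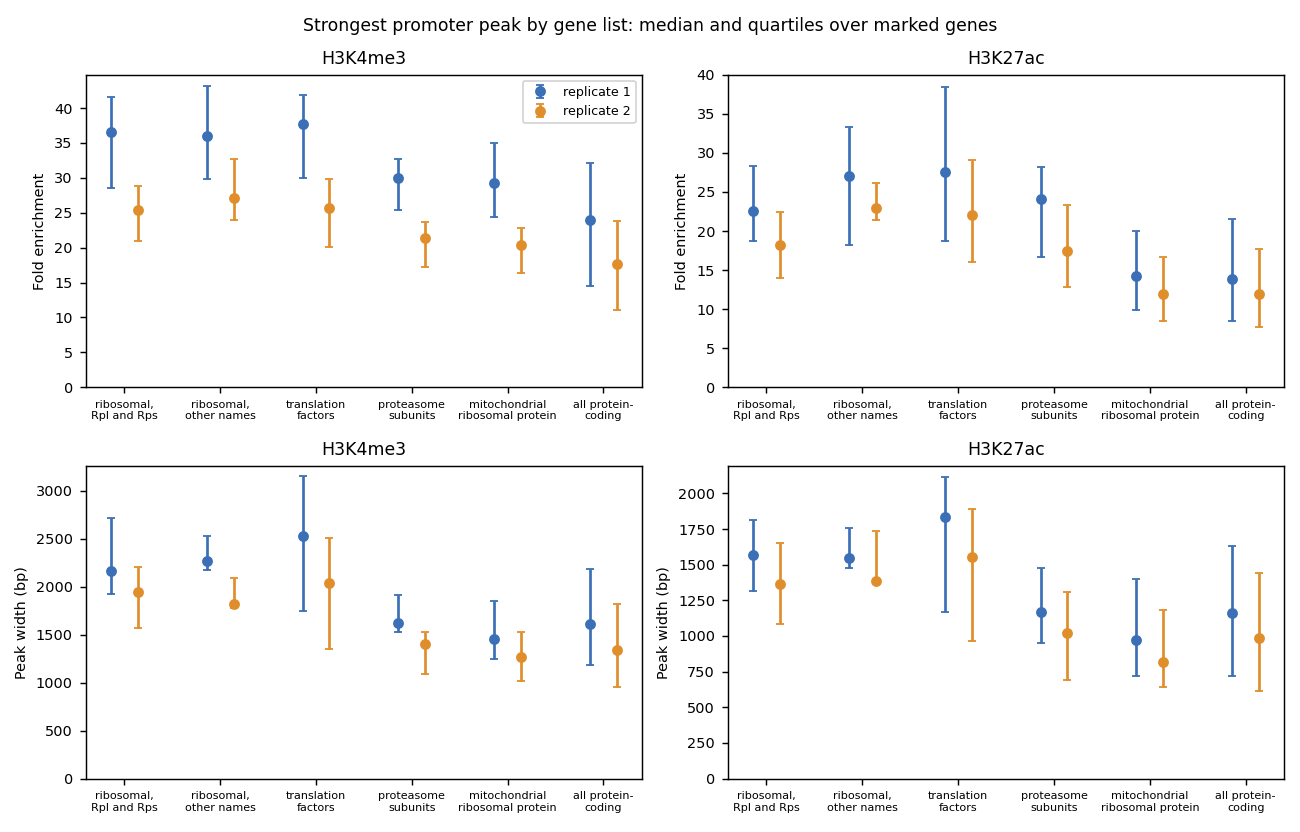
Fold enrichment (top) and width in bp (bottom) of the strongest H3K4me3 and H3K27ac promoter peak by gene list; points are medians over the marked genes and bars span the quartiles, in replicate 1 (blue) and 2 (orange). Both lists of ribosomal protein genes and the translation factor genes lie above the others for H3K4me3, with median folds of 36.6, 36 and 37.7 in replicate 1 and 25.4, 27.1 and 25.7 in replicate 2, and mitochondrial ribosomal protein genes lie near all protein-coding genes for H3K27ac.

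Within the ribosome, the medians of the 2 subunits were close for H3K4me3 and H3K27ac. The 46 marked large subunit genes had median H3K4me3 folds of 36.2 and 25.3, and the 31 marked small subunit genes 37.9 and 25.8. Their H3K27ac medians were 22.6 and 18.2 for the large and 22.2 and 17.7 for the small subunit. ATAC-seq medians were 13.6 and 12.2 for the large and 15.2 and 14.2 for the small subunit. The ATAC-seq medians were higher for the small subunit in both replicates, with no test of the difference.

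Ribosomal proteins with known roles outside the ribosome were marked like the rest. The genes considered were *Rpl5*, *Rpl11*, *Rpl23* and *Rpl26*, whose products bind MDM2 or p53 messenger RNA, *Rps6*, the substrate of the S6 kinases, *Rps3*, *Rps14*, *Rps19*, *Rps20* and *Rps27a*. Their H3K4me3 folds ran from 27.8 (*Rps20*) to 51.3 (*Rps19*) in replicate 1 and from 21.2 (*Rpl11*) to 39.5 (*Rps19*) in replicate 2. *Rpl5* had folds of 47.1 and 35.1 and *Rpl11* had 32.7 and 21.2, although their products form 1 complex with 5S ribosomal RNA. *Rpl11* was higher for ATAC-seq, with 25.8 and 20.0 against 13.4 and 12.4. *Rps6* had 41.3 and 28.7 for H3K4me3, and 33.0 and 27.8 for H3K27ac.

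Many members host snoRNA genes. A snoRNA gene lay inside 28 of the 82 genes on the same strand (34.1%), against 1.18% of all protein-coding genes, with most in *Rpl4* (5). The 28 hosts had H3K4me3 promoter peaks in both replicates, with median widths of 2365 and 2046 bp, against 2153 and 1881 bp over the 49 marked members without one. Their median folds were 37.8 and 24.5, against 36.3 and 26.1, so that the order of the folds differed between replicates.

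A peak at a promoter may belong to a neighbour. The start of another protein-coding gene lay within 1 kb of the principal start at 15 of 82 genes (18.3%), against 12.8% of all genes. The strongest H3K4me3 peak covered the start of another protein-coding gene at 17 of 77 members in each replicate (22.1%), against 21.5% and 21.3% over all marked genes. Members that did not share their peak had median folds of 36.9 and 25.3 and widths of 2126 and 1804 bp, against 36.3 and 25.6 and 2662 and 2160 bp for those that did. The median folds of members with and without a shared peak were close. The median widths were smaller without a shared peak, though above those of all marked genes. The part of neighbouring genes in these peaks was not tested.

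H3K27me3 promoter peaks were listed at 3 and 2 of the 82 genes (3.66% and 2.44%) in replicates 1 and 2. Over all protein-coding genes the shares were 5.66% and 7.64%, so the mark was uncommon there too. *Rpl32*, a large subunit protein, had an H3K27me3 peak of 84 bp with a fold of 6.11 in replicate 1, its summit 467 bp downstream of the nearest annotated start, which is not the principal one. *Rps27rt* had 84 bp with a fold of 1.45 in replicate 1, and *Rpl3* 194 bp with a fold of 3.76 in replicate 2. The median widths over all marked protein-coding genes were 177 and 222 bp in replicates 1 and 2. The −log10 of the q-value was 0.561 at *Rps27rt* and 1.51 at *Rpl3*, against 9.42 at *Rpl32*. A value of at least 5 was reached by 288 of 6064 H3K27me3 peaks in replicate 1 and 706 of 10458 in replicate 2. None of the peaks at *Rpl32*, *Rps27rt* and *Rpl3* was listed in both replicates. *Rpl32* and *Rpl3* also had the 3 active features in both replicates, with H3K4me3 folds of 39.2 and 24.1 at *Rpl32*. Peaks under 100 bp make up 17.4% and 16.1% of the H3K27me3 lists, and 84 and 88 bp are the smallest widths in them. What gave the peaks of 84 bp was not tested.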

How the data were processed

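ATAC-seq and ChIP-seq peak lists of 8 libraries were used, 2 replicates for each of 4 features. As described in the paper's methods and per the labels, the authors trimmed reads with Trim Galore 0.6.10, aligned them to mm10 with BWA 0.7.17-r1188, removed duplicates, blacklisted regions and reads of low mapping quality, shifted ATAC-seq reads to the Tn5 cut with deepTools 3.5.5, and called peaks with MACS2 2.2.6 in each library. Reads that fit several places equally well are lost by this, which can lower values at genes with near-identical copies. The deposited lists give the fold enrichment at the summit over local background, p-values and q-values on the −log10 scale and a score (not used further), all as the authors' values. No read numbers are listed. The depth is therefore unknown, and no counting interval could be given.

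Promoters were 3 kb either side of any GENCODE M21 start site. The promoter peak with the highest fold stood for the gene, and a fold was compared between genes only within a list. Start sequences came from RefSeq windows (GRCm38.p6), matched by symbol. Peak assignment was tested on simulated data with planted peaks. Genes named individually were those lacking an active feature or carrying H3K27me3, the 3 highest and lowest folds per active feature and the 3 widest and narrowest H3K4me3 peaks by the lower replicate, paralogs, and members with roles outside the ribosome. *Rps4l*, a further paralog, was not analysed here. *Rpl22* and *Rpl4* were named after their values were seen. A few genes are not reported here by name. The members and lists were chosen with earlier results of these data known. Nothing in the labels says whether replicates came from separate animals. Editing and other samples were not analysed here. Python 3.11.15, numpy 2.4.6, pandas 2.3.3 and matplotlib 3.10.9 were used.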

Additional observations from a re-analysis of the deposited data

How the results depend on the processing

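The 15 counts and medians were recomputed under other settings, each where it applied, which gave 92 values. The settings were promoters of 1 kb, start sites of protein-coding transcripts, a −log10 q limit of 5, and peaks given to the nearest gene. Others were the widest peak, genes of more than 1 exon, RefSeq starts, a tract near the start, and each replicate alone. A further 14 values, from a setting chosen after seeing the data, leave out *Rps19bp1* and *Rps25*. The genes without any promoter peak are then 2. Of these 106 values, 102 stayed within 1.5 times the count or within 1 SD of the replicate medians. A median from 1 replicate always lies within 1 SD of the mean of 2. The single-replicate medians could therefore not fall outside this limit and say nothing about stability. The exceptions were the distance to the ATAC-seq summit, 47.2 bp from RefSeq starts against 30.2 bp, the genes with a tract at the start, 39 within 10 bases against 13, and the genes with H3K27me3 in both replicates, which are 1, and 2 to 3 when a single replicate is used. The cause was not tested for the first; the others follow from the wider window and from asking for 1 list in place of 2. With peaks given to the nearest gene, 68 genes in place of 76 had all 3 active features. No paired analysis was possible because no groups were compared and the results come from no test. With 2 libraries a feature and unknown depth, a missing peak cannot be told from one too weak to be called.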
